A study of Danio rerio with 6 samples.

Results

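The genes described here encode heparan sulfate proteoglycans and the enzymes that build, modify and cut their sugar chains. They were taken by symbol from the authors' deposited comparison table: endosulfatases (sulf1, sulf2), sulfotransferases (ndst, hs2st, hs3st, hs6st), polymerases (ext, extl), the epimerase glce, linkage enzymes (xylt, b3gat3), heparanases (hpse), syndecans (sdc), glypicans (gpc), perlecan (hspg2) and agrin (agrn). Of 56 matching identifiers, 41 also had FPKM values (fragment counts divided by gene length and library size) and form the set, out of 24667 genes that both tables hold. The samples were regenerating hearts of adult zebrafish (Danio rerio, strain TU-AB, aged 6 to 12 months), collected 5 days after amputation. There were 3 samples from Tg(hsp70l:DN-MAML) fish and 3 from wild-type (WT) fish, and both groups were heat shocked for 1 h at 38 C every day. The DN-MAML transgene encodes a dominant-negative fragment of Mastermind, the co-activator that Notch needs for transcription. The hsp70l promoter is switched on by heat and is not restricted to a cell type, so the tables cannot tell in which heart cells Notch was blocked. The study set out to find genes downstream of Notch that bear on cardiomyocyte proliferation.

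Heparan sulfate is a long sulfated sugar chain carried by a few core proteins on the cell surface and in basement membranes. A linker is built on the core protein, the chain is polymerised in the Golgi, and sulfate groups are then placed at the N, 2-O, 6-O and 3-O positions. The pattern of sulfates sets which secreted factors bind, among them Wnt, FGF, VEGF and BMP proteins. Outside the cell, endosulfatases take away 6-O sulfates and heparanase cuts the chain.

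The FPKM added up to between 852778 and 914709 per sample, and the number of reads per sample is not given in the sources used here. All 8 cardiomyocyte markers were measured, with summed levels of 36738 to 45760 FPKM in DN-MAML and 43075 to 50814 FPKM in WT samples, and their log2 changes were below 0 in 8 of 8, or in 4 of 8 after quantile normalization. Of them vmhc, the ventricular myosin, is lower in the authors' deposited table (log2 change -0.71, adjusted p = 0.000389) and did not pass limma (adjusted p = 0.144). The Notch target her6 had 21.44, 18.29 and 16.8 FPKM in the DN-MAML samples, against 39.01, 35.53 and 36.93 FPKM in the WT samples. The first principal component (36.8% of the variance) placed the DN-MAML samples at -28.1, -10.1 and -22.8 and the WT samples at 1.3, 33.8 and 25.8, so WT replicate 1 stood apart from the other WT samples. Whether a sample is a single fish or a pool is not stated in the labels, so each p-value reflects the spread among these libraries, which may be technical.

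Of the 41 genes, 1 was lower in DN-MAML hearts past the threshold and the other members measured well enough to test were not called. That gene was sulf2a, an endosulfatase that removes 6-O sulfates from heparan sulfate outside the cell. Its mean level in DN-MAML hearts was 31.7% of that in WT hearts. Its relatives sulf2b and sulf1, the syndecans, glypicans, perlecan and agrin, and the enzymes of chain assembly and sulfation were not called. The set holds 30 genes with a mean of at least 0.5 FPKM over the 6 samples, which were tested with limma on log2(FPKM + 0.5) over all 16556 such genes. A gene was called at an adjusted p under 0.05 (Benjamini-Hochberg over all genes tested). By that rule 0.0966% of all genes tested were called, 0.0423% lower and 0.0544% higher.

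The direction was even among the genes tested, with 15 above and 15 below 0, and their median log2 change was 0.0010, against 0.026 over all genes tested. Genes below 0 made up 44.9% of all genes tested. The median size of the log2 change, without sign, was 0.144 for the set and 0.148 for all genes tested. Apart from sulf2a, the log2 changes lay between -0.34 and 0.28, and the lowest adjusted p was 0.381 (limma). Changes of this size would rarely be called with 3 samples a group: on simulated data limma called 6% of genes with a log2 change of 0.5. For 28 of these 29 genes the 95% interval of the log2 change lay within -1 to 1, and the exception was sulf1, whose upper bound was 1.01. At an unadjusted p under 0.05 sulf2a was again the 1 gene, where 13.2% of all genes tested fell under it. The groups did not overlap for 3 genes, all lower in DN-MAML (sulf2a, agrn and hs3st3b1b), where 18.8% of all genes tested were separated, 8.98% in that direction and 9.83% in the other. In the authors' deposited table, 1 of 34 members with an adjusted p was under 0.05, again sulf2a, where 4.38% of all its genes with an adjusted p were, 2.27% lower and 2.11% higher.

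**Figure D1:**
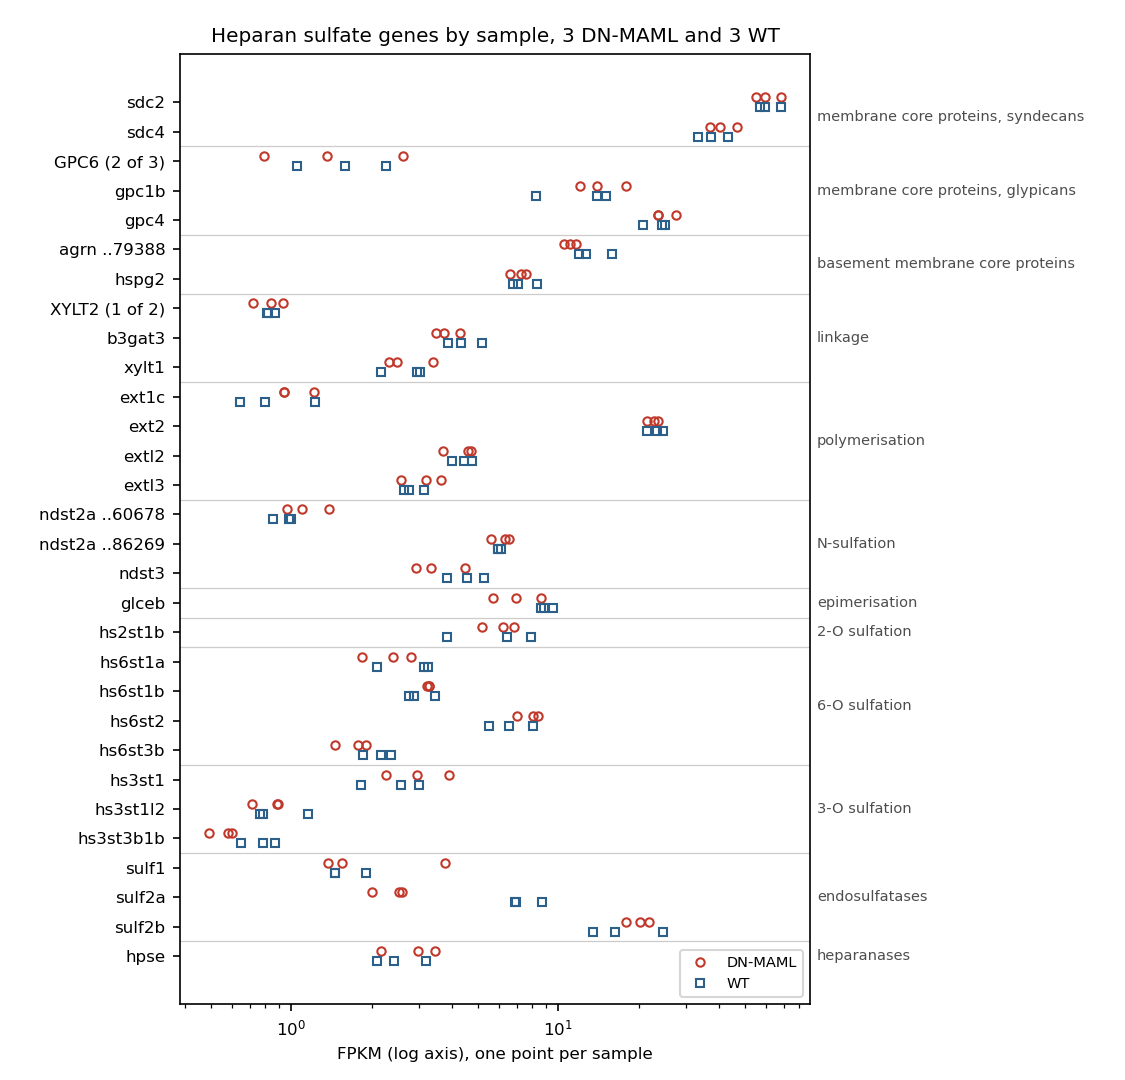
FPKM of the 30 heparan sulfate genes tested, on a log axis, with a circle for each DN-MAML sample and a square for each WT sample, grouped by role (gene copies that share a name carry the end of their identifier). The DN-MAML and WT samples are interleaved in most rows, and sulf2a is the row with the wide gap, at 2.01 to 2.59 FPKM in DN-MAML and 6.88 to 8.67 FPKM in WT.

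sulf2a (ENSDARG00000018423) had 2.53, 2.01 and 2.59 FPKM in the DN-MAML samples, against 6.93, 6.88 and 8.67 FPKM in the WT samples. The highest DN-MAML sample lay below the lowest WT sample, and the 3 samples of each group lay close together. The log2 change on the log2(FPKM + 0.5) scale was -1.47 (SE 0.14, 95% interval -1.80 to -1.15), and the log2 ratio of the group means without the added 0.5 was -1.66. It passed limma's test with an adjusted p of 0.0146 and was lower in 3 of 3 DN-MAML samples. By p-value it ranked 8 of 16556 genes, and 34 genes tested had a lower log2 change. The authors' deposited table gives sulf2a a log2 change of -1.60 (SE 0.17), an adjusted p of 4.2e-18 and, as its average normalized count, 656, which places it at rank 7 of 18217 genes by p-value.

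Without WT replicate 1, the sample that stood apart, the log2 change of sulf2a was -1.52 and its adjusted p 0.00966 (limma). Leaving out the other samples kept the change between -1.37 and -1.53. The call was lost in limma without DN-MAML replicate 1 (adjusted p = 0.0524), DN-MAML replicate 2 (0.0651), DN-MAML replicate 3 (0.0713) or WT replicate 3 (0.0820), and it was kept without WT replicate 2 (0.0471).

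**Figure D2:**
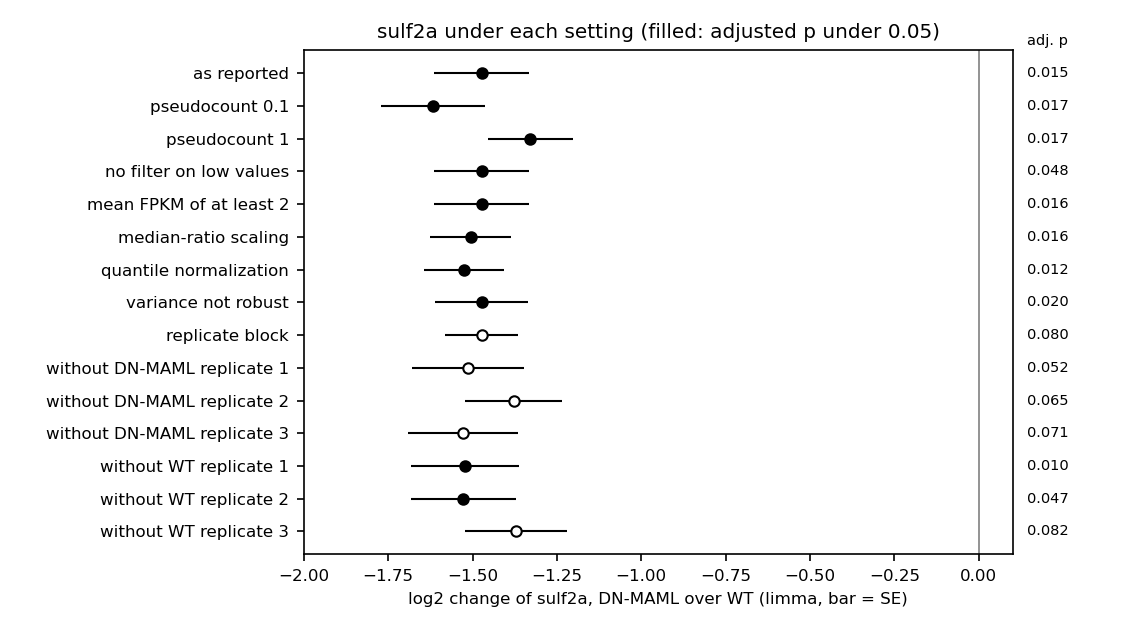
Log2 change of sulf2a (DN-MAML over WT, limma, bars are SE) under the reported setting and each alternative, with the adjusted p at the right and filled circles where it is under 0.05. The change stays between -1.62 and -1.33 in every row shown, while the adjusted p runs from 0.00966 to 0.0820.

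Levels of some cell type markers differed between the same samples. The lists drawn up held 7 smooth muscle and mural, 9 endothelial and endocardial, and 8 each of epicardial and fibroblast, erythroid and leukocyte markers. Markers without a single matching identifier were left out. The summed FPKM of 6 smooth muscle and mural markers was 236 to 286 in DN-MAML and 367 to 464 in WT samples, without overlap, and none of the 6 was at 0. Of these markers 4 of 6 were below 0 and 2 above, so the lower sum does not hold for each marker. The smooth muscle actin acta2 is lower in the authors' deposited table (log2 change -1.31, adjusted p = 2.7e-07). In limma acta2 did not pass (log2 change -1.27, adjusted p = 0.121). Not called in the authors' deposited table were tagln (log2 change -0.48, adjusted p = 0.0831) and myh11a (0.049, adjusted p = 0.947). The 8 endothelial and endocardial markers matched summed to 218 to 277 FPKM in DN-MAML and 212 to 256 FPKM in WT samples, overlapping. Of them 5 of 8 were above 0. Without a sample this ran from 2 of 8 (DN-MAML replicate 3 left out) to 6 of 8 (DN-MAML replicate 2 or WT replicate 3 left out). The 7 epicardial and fibroblast markers summed to 691 to 957 FPKM in DN-MAML and 535 to 1016 FPKM in WT samples, with 5 of 7 above 0. Erythroid markers, all 7 below 0 in limma, summed to 5771 to 8831 FPKM in DN-MAML and 9176 to 16507 FPKM in WT samples. Without DN-MAML replicate 1 or without WT replicate 2, 6 of the 7 were below 0. The globins ba1 and ba1l among these markers are lower in the authors' deposited table (log2 changes -1.12 and -1.05, adjusted p = 5.3e-05 and 0.000251) and did not pass limma (adjusted p = 0.294 and 0.163). The marker hbaa2 has a log2 change of 0.034 in the authors' deposited table (adjusted p = 0.986). Leukocyte markers, all 7 above 0 and none past either threshold, summed to 166 to 190.3 FPKM in DN-MAML and 121 to 167 FPKM in WT samples, which overlap. The 7 Schwann cell and neuron markers summed to 2.66 to 3.22 FPKM in DN-MAML and 1.78 to 2.28 FPKM in WT samples, with 2 tested, both above 0, and sox10, elavl3 and stmn2a under 0.5 FPKM in every sample. No marker of these lists was at 0 in every sample. Fewer cells of a type and less RNA per cell cannot be told apart in these bulk samples, and the part of cell makeup in the level of sulf2a was not tested.

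The other endosulfatase genes were sulf2b, the duplicate of sulf2a in zebrafish, and sulf1. sulf2b had 21.93, 20.29 and 17.92 FPKM in the DN-MAML samples, against 24.66, 13.52 and 16.32 FPKM in the WT samples. The groups overlap, with the highest and the lowest value both in WT. In limma its log2 change was 0.18 (SE 0.21, 95% interval -0.32 to 0.67, adjusted p = 0.746). Leaving out WT replicate 1 gave 0.42 (limma, adjusted p = 0.183), and leaving out WT replicate 2 gave -0.0065 (limma, adjusted p = 0.995). sulf1 had 3.77, 1.37 and 1.55 FPKM in the DN-MAML samples, against 1.90, 1.46 and 1.46 FPKM in the WT samples. DN-MAML replicate 1 alone was high and the other samples of both groups were alike (log2 change 0.28, SE 0.31; limma, adjusted p = 0.732).

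sulf2a made up 8.96%, 8.49% and 11.7% of the summed FPKM of the 3 endosulfatases in the DN-MAML samples, against 20.7%, 31.5% and 32.8% in the WT samples. The groups do not overlap, and WT replicate 1, with the highest sulf2b, was the lowest WT sample. The summed FPKM itself was 28.2, 23.7 and 22.1 in DN-MAML and 33.5, 21.9 and 26.45 in WT samples, which overlap (exact two-sided permutation test, p = 0.7). The log2 ratio of sulf2a to sulf2b within a sample was -2.84 ± 0.241 in DN-MAML and -1.19 ± 0.497 in WT (SD, n = 3 each). Their difference of -1.65 had p = 0.1 in an exact two-sided permutation test, the smallest that 3 against 3 samples allow. The log2 ratio of sulf2a to sulf1 was 0.174 ± 0.585 in DN-MAML and 1.92 ± 0.298 in WT (SD, n = 3 each), with the same exact permutation p of 0.1. Both ratios use the sulf2a values behind its limma call, so their tests are not separate evidence for it. The level of sulf2b was 6.92 to 10.1 times the FPKM of sulf2a in DN-MAML samples and 1.88 to 3.56 times in WT samples.

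**Figure D3:**
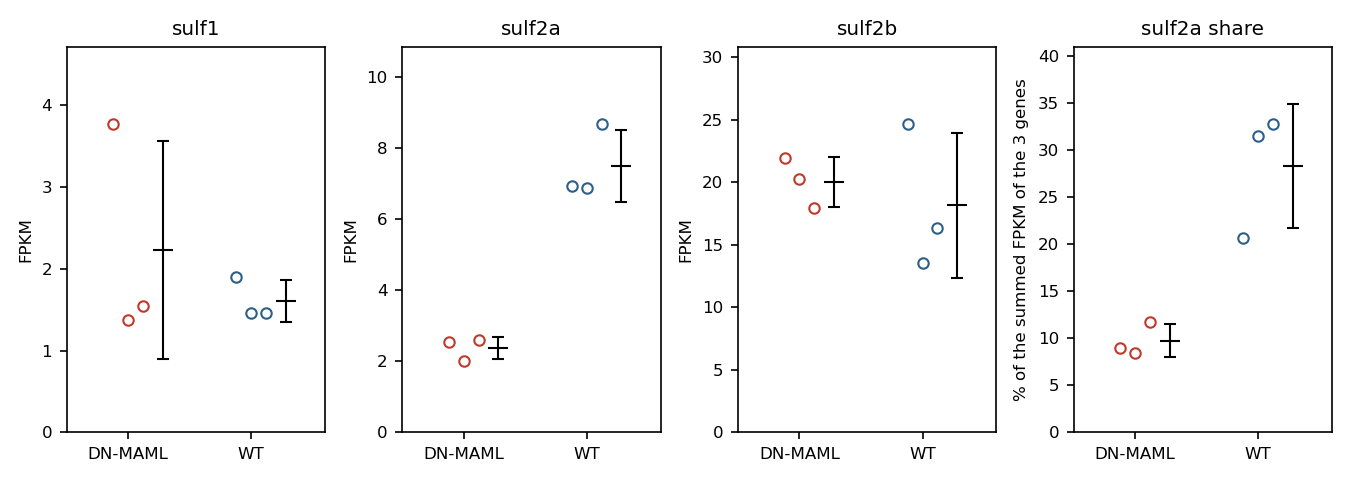
FPKM of sulf1, sulf2a and sulf2b, and the percent of their summed FPKM that is sulf2a, by sample (circles), with mean and SD (n = 3) beside each group. sulf2a is at 2.01 to 2.59 FPKM in DN-MAML and 6.88 to 8.67 in WT, and its share is 8.49% to 11.7% in DN-MAML and 20.7% to 32.8% in WT, while sulf1 and sulf2b overlap.

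The most abundant genes of the set were core proteins. sdc2, a syndecan that crosses the membrane, was the highest of all, with 67.98, 55.09 and 59.67 FPKM in the DN-MAML samples, against 68.43, 56.81 and 59.23 FPKM in the WT samples. Same-numbered samples were within 2 FPKM of each other, and the log2 change was -0.014 (SE 0.12, 95% interval -0.29 to 0.26; limma, adjusted p = 0.972). The second syndecan, sdc4, averaged 41.4 ± 4.84 FPKM in DN-MAML and 38.0 ± 5.05 FPKM in WT (SD, n = 3 each), with a log2 change of 0.12. Together sdc2 and sdc4 made up 61.3% to 64.8% of the set's core protein FPKM in DN-MAML and 61.7% to 65.6% in WT samples. Core proteins without FPKM values, among them sdc3, are not in this sum. Glypicans are attached to the membrane by a lipid anchor. Among them gpc4 averaged 25.0 ± 2.30 FPKM in DN-MAML and 23.4 ± 2.35 FPKM in WT, and gpc1b 14.7 ± 2.98 FPKM in DN-MAML and 12.4 ± 3.65 FPKM in WT (SD, n = 3 each). GPC6 (2 of 3), a copy numbered in the authors' naming, was between 0.79 and 2.62 FPKM over all samples. None of the 3 glypicans tested was called.

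Neither of the basement membrane core proteins of the set was called. Agrin (agrn, ENSDARG00000079388), known for clustering receptors at the neuromuscular synapse and also found in heart matrix, had 10.48, 11.03 and 11.66 FPKM in the DN-MAML samples, against 12.69, 11.92 and 15.92 FPKM in the WT samples. The groups do not overlap, by a gap between 11.66 and 11.92 FPKM. The log2 change was -0.27 (SE 0.13) and did not pass limma (adjusted p = 0.405). It did not pass in the authors' deposited table either (log2 change -0.33, adjusted p = 0.151). A second agrn identifier, ENSDARG00000096339, has no FPKM values. The authors' deposited table gives that identifier a log2 change of -0.44 (adjusted p = 0.424). Perlecan (hspg2) averaged 7.13 ± 0.488 FPKM in DN-MAML and 7.38 ± 0.821 FPKM in WT (SD, n = 3 each). Its groups overlap, with a log2 change of -0.044 (SE 0.11; limma, adjusted p = 0.898). The core proteins of the set summed to 171, 150.4 and 164 FPKM in DN-MAML and 165, 143 and 166 FPKM in WT samples. These sums overlap (exact two-sided permutation test, p = 0.7, where 3 against 3 samples allow no p under 0.1).

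Chains begin with a linker, which xylosyltransferases start and the glucuronyltransferase b3gat3 completes. b3gat3 had 4.29, 3.49 and 3.73 FPKM in the DN-MAML samples, against 5.16, 3.87 and 4.33 FPKM in the WT samples (log2 change -0.19, SE 0.14; limma, adjusted p = 0.580). The groups overlap in the range from 3.87 to 4.29 FPKM. xylt1 averaged 2.74 ± 0.577 FPKM in DN-MAML and 2.71 ± 0.472 FPKM in WT (SD, n = 3 each), and XYLT2 (1 of 2) was under 1 FPKM in every sample. The polymerase subunit ext2 was the most abundant enzyme of the set, with 23.58, 22.90 and 21.47 FPKM in the DN-MAML samples, against 24.56, 21.46 and 23.39 FPKM in the WT samples. These overlap almost fully, with a log2 change of -0.029 (SE 0.095, 95% interval -0.25 to 0.19; limma, adjusted p = 0.923). The related ext1c, extl2 and extl3, of which extl3 acts at the start of chain growth in mammals, had log2 changes of 0.16, -0.027 and 0.11.

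N-deacetylase/N-sulfotransferases (ndst) place the N-sulfates on which later steps depend. The identifier ENSDARG00000086269, named ndst2a, had 6.55, 5.59 and 6.30 FPKM in the DN-MAML samples, against 5.94, 5.96 and 6.08 FPKM in the WT samples. The WT samples lie inside the DN-MAML range (log2 change 0.031, SE 0.10; limma, adjusted p = 0.924). A second identifier with the same name, ENSDARG00000060678, averaged 1.15 ± 0.214 FPKM in DN-MAML and 0.943 ± 0.0814 FPKM in WT. ndst3, which the gene name table calls NDST4, averaged 3.58 ± 0.798 FPKM in DN-MAML and 4.55 ± 0.705 FPKM in WT (SD, n = 3 each). Its log2 change of -0.31 was not called (limma, adjusted p = 0.469).

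Glucuronyl C5-epimerase (glce) turns glucuronic into iduronic acid along the chain. glceb had 5.69, 6.96 and 8.61 FPKM in the DN-MAML samples, against 8.59, 8.86 and 9.55 FPKM in the WT samples. DN-MAML replicate 3 alone reached the WT range. The log2 change of -0.34 (SE 0.15, 95% interval -0.68 to 0.0020) was the lowest after sulf2a in limma and did not pass (adjusted p = 0.381). Without the added 0.5, the log2 ratio of the group means was -0.34 for glceb and -0.46 for hs3st3b1b. In the authors' deposited table glceb was at -0.36 with an adjusted p of 0.221. Its duplicate glcea, under the minimum for testing, had 0.21, 0.28 and 0.24 FPKM in the DN-MAML samples, against 0.33, 0.32 and 0.45 FPKM in the WT samples, without overlap. In the authors' deposited table glcea has a log2 change of -0.61 and an adjusted p of 0.329. glcea was singled out after its values were seen.

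The 2-O sulfotransferase hs2st1b had 5.18, 6.85 and 6.18 FPKM in the DN-MAML samples, against 6.42, 3.83 and 7.87 FPKM in the WT samples. The WT samples spread more widely than the groups differ (log2 change 0.051, SE 0.24; limma, adjusted p = 0.948). The 6-O sulfotransferases place the sulfate that endosulfatases later remove. Of these hs6st2 was the highest, with 8.42, 8.03 and 6.98 FPKM in the DN-MAML samples, against 8.07, 5.49 and 6.55 FPKM in the WT samples. The groups overlap (log2 change 0.22, SE 0.15; limma, adjusted p = 0.559). The log2 changes of hs6st1a, hs6st1b and hs6st3b were -0.22, 0.096 and -0.25, so 2 of the 4 genes tested were above and 2 below 0. The 6-O sulfotransferases summed to 15.2 ± 0.833 FPKM in DN-MAML and 14.7 ± 1.26 FPKM in WT (SD, n = 3 each).

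The 3-O sulfotransferases, which add the rarest sulfate, were the largest enzyme family, with 7 members of which 3 were tested. hs3st1 led them with 2.26, 2.95 and 3.88 FPKM in the DN-MAML samples, against 3.01, 1.83 and 2.58 FPKM in the WT samples, which overlap (log2 change 0.24, SE 0.22; limma, adjusted p = 0.653). hs3st3b1b had 0.60, 0.58 and 0.49 FPKM in the DN-MAML samples, against 0.65, 0.87 and 0.78 FPKM in the WT samples, without overlap, and was singled out after its values were seen. Its log2 change of -0.26 did not pass limma (adjusted p = 0.514), and the -0.47 of the authors' deposited table did not pass there (adjusted p = 0.230). hs3st1l2 was between 0.71 and 1.15 FPKM over all samples. Heparanase (hpse), the enzyme that cuts the chain, had 3.45, 2.17 and 2.99 FPKM in the DN-MAML samples, against 3.19, 2.10 and 2.43 FPKM in the WT samples (log2 change 0.13, SE 0.19; limma, adjusted p = 0.803). In both groups replicate 1 was the highest and replicate 2 the lowest, and the groups overlap.

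**Figure D4:**
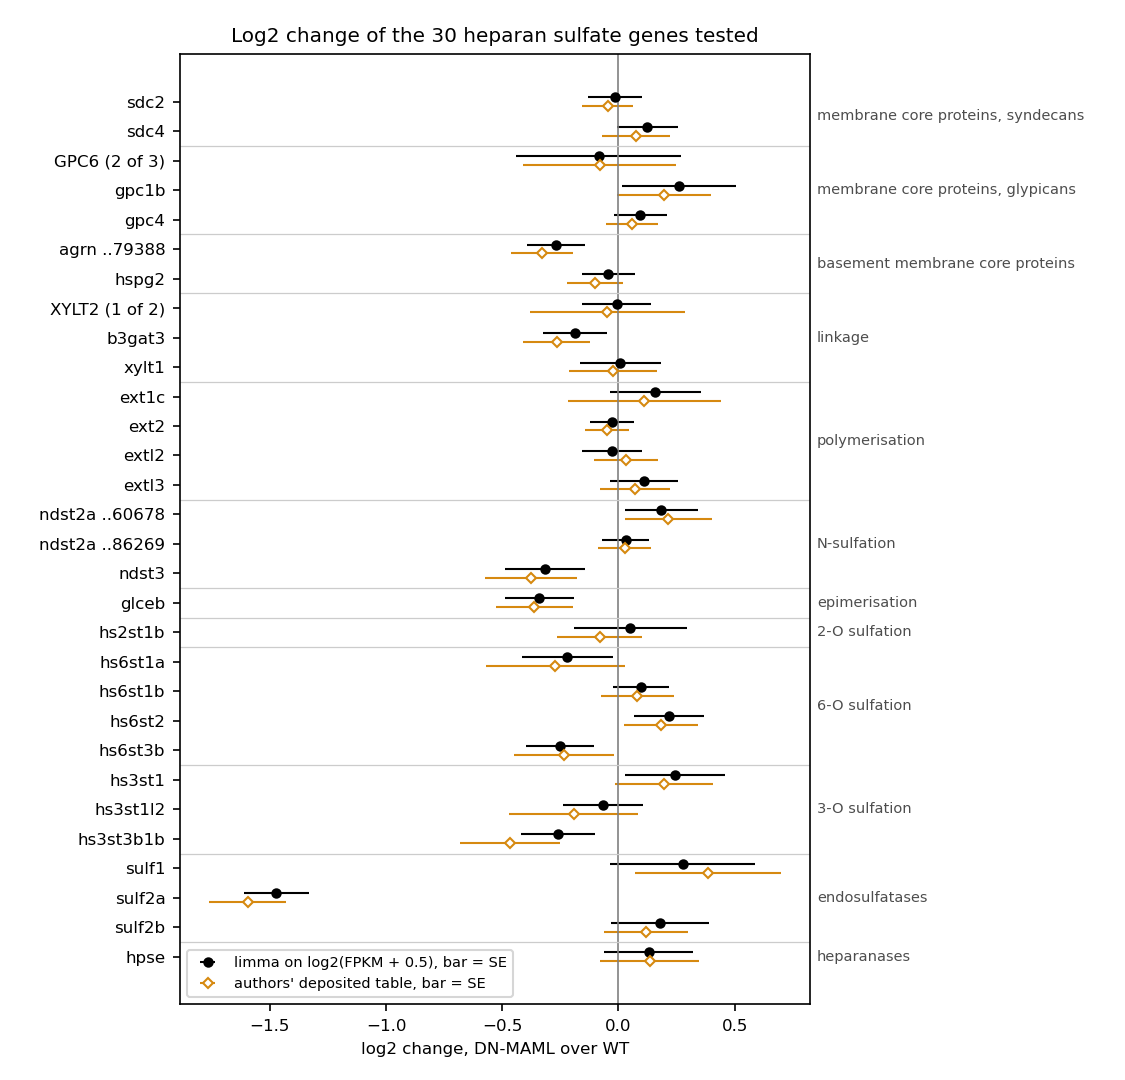
Log2 change (DN-MAML over WT) of the 30 heparan sulfate genes tested, by role, from limma on FPKM (filled circles) and from the authors' deposited table (open diamonds), with SE bars. Both place sulf2a apart, at -1.47 in limma and -1.60 in the authors' deposited table, and the other limma values lie between -0.34 and 0.28.

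The remaining 11 genes had a mean under 0.5 FPKM and were not tested: gpc1a, gpc3, gpc5, EXT1 (1 of 4), glcea, hs6st3a, HS3ST6, hs3st2, hs3st3l, hs3st4 and hpse2. Their highest value in any sample was 0.64 FPKM, and 6 of them were under 0.1 FPKM in every sample. hpse2, a heparanase relative that lacks enzyme activity in mammals, had 0.59, 0.29 and 0.21 FPKM in the DN-MAML samples, against 0.64, 0.33 and 0.23 FPKM in the WT samples. The FPKM mean of hpse2 was thus lower in DN-MAML (0.363) than in WT (0.400). The authors' deposited table gives hpse2 a log2 change in the other direction, 0.57 (adjusted p = 0.452). At this rounding of 0.01 FPKM a difference in the lowest of the 11 genes was not detectable.

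A further 15 identifiers matched by name stand in the comparison table alone. In the authors' deposited table none of them is called, with the syndecan sdc3 (mean normalized count 2021) at a log2 change of 0.30 (adjusted p = 0.242) and GPC5 at 0.64 (adjusted p = 0.274). The authors' deposited table gives ext1a a log2 change of -0.090, hs2st1a -0.12 and NDST1 (2 of 2) 0.23, also not called. Over all 56 identifiers, 6 have an unadjusted p under 0.05 in the authors' deposited table, where 11.9% of its genes with a p-value do. Of the 6, sulf2a, agrn (ENSDARG00000079388), glceb and hs3st3b1b are lower, and sdc3 and GPC5 are higher.

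Genes that serve the same pathway outside the set were read from the same fit. Linker and precursor genes build or modify the linker, make or transport UDP sugars and the sulfate donor PAPS, or clear its by-product. Of 16 such genes tested, 4 were above and 12 below 0 (median log2 change -0.058). None was called by limma or in the authors' deposited table. The lowest unadjusted p were those of ugp2a and bpnt1. ugp2a makes UDP-glucose and had 64.2, 55.8 and 52.1 FPKM in DN-MAML and 81.7, 66.2 and 63.5 in WT samples. bpnt1 clears a by-product of sulfation and had 12.7, 8.71 and 12.8 FPKM in DN-MAML and 9.74, 7.76 and 8.44 in WT samples.

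The list for lysosomal heparan sulfate breakdown also holds glb1 and the sulfatase-modifying factors sumf1 and sumf2, which are not breakdown enzymes of this chain. Of the whole list, 11 of 11 genes tested were above 0 (median log2 change 0.16, against 0.026 over all genes). The count was 10 of 11 after median-ratio or quantile scaling, and without WT replicate 2 it was 8 of 11 with a median of 0.022. None was called by limma. Of 10 genes with an adjusted p in the authors' deposited table, glb1 was the 1 called (log2 change 0.43, adjusted p = 0.0458). It is a lysosomal beta-galactosidase that acts on substrates other than heparan sulfate. Over that whole table the share called higher was 2.11% of genes with an adjusted p. glb1 had 8.11, 7.04 and 9.43 FPKM in DN-MAML and 6.57, 4.66 and 5.81 in WT samples, without overlap (limma, log2 change 0.50, adjusted p = 0.264). Of all genes tested 9.83% were separated in that direction. The 7 leukocyte markers given above were also above 0, none of them past a threshold, and their part in these levels was not tested.

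Chondroitin and dermatan sulfate share the linker with heparan sulfate. Of 21 such genes tested, 10 were above and 11 below 0 (median -0.023) and none was called by limma. Of 23 with an adjusted p in the authors' deposited table, 3 were lower past the threshold. Over that whole table the share called lower was 2.27% of genes with an adjusted p. The chondroitin sulfotransferase chst11 had 2.00, 1.27 and 1.90 FPKM in DN-MAML and 3.39, 1.95 and 3.80 in WT samples (authors' deposited table, log2 change -0.79, adjusted p = 0.0228). The related CHST7 had 2.97, 3.63 and 3.54 FPKM in DN-MAML and 4.74, 4.41 and 6.73 in WT samples (authors' deposited table, -0.64, adjusted p = 0.0407). The aggrecan gene acanb, under the minimum for testing, had 0.14, 0.13 and 0.12 FPKM in DN-MAML and 0.34, 0.45 and 0.22 in WT samples (authors' deposited table, -1.02, adjusted p = 0.0272). CHST7 and acanb did not overlap between the groups, while chst11 did, by DN-MAML replicate 1 and WT replicate 2. Of all genes tested 8.98% were separated with DN-MAML lower. In limma chst11 and CHST7 had adjusted p of 0.321 and 0.252.

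A last list was drawn up for proteins that carry heparan sulfate chains only at times, or keep them in secretory granules. It also holds ptprz1a, ptprz1b, fgfbp1a and fgfbp2a, which are not such carriers. Of 10 genes of the list tested, 4 were above and 6 below 0 (median -0.010). None was called by limma. The hyaluronan receptor cd44b was the 1 of 11 called in the authors' deposited table (log2 change 0.59, adjusted p = 0.00163). Over that whole table the share called higher was 2.11% of genes with an adjusted p. cd44b had 4.09, 3.81 and 4.19 FPKM in DN-MAML and 2.77, 1.96 and 2.63 in WT samples, without overlap (limma, log2 change 0.63, adjusted p = 0.169). Of all genes tested 9.83% were separated in that direction.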

How the data were processed

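The submitters' processing notes list STAR, featureCounts, DESeq2, FastQC and cutadapt without versions, roles or order. Neither the genome build nor the tool behind the FPKM is given in the sources used here, so no coordinates are printed. The authors deposited FPKM for 32105 genes, rounded to 0.01, so depth per sample is unknown. They also deposited a comparison table of 33737 genes, which per the file headers holds a mean normalized count (a signal over all samples), a log2 fold change with its standard error, a score (their quotient), and unadjusted and adjusted p-values. Positive values are higher in DN-MAML: 570 of 575 called genes tested here have the sign of the FPKM difference.

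log2(FPKM + 0.5), for genes with a mean of at least 0.5 FPKM, was compared in limma 3.58.1 (R 4.3.3; trended, robust variance, no block), with the threshold at 0.05. Exact permutation tests used scipy 1.17.1 under Python 3.11.15. On simulated data (16556 genes) limma called log2 changes of 0.5 in 6% of genes, 1 in 70%, 1.5 in 94% and 3 in 100%. There were 4 false calls, and 0 genes called with no change made. The simulation changed 50 genes at each size and drew noise independently for each gene. Its calls outnumbered the 16 of the data, which eases the adjusted threshold. These shares may therefore be higher than the data would give. Named genes were those past either table's threshold, those without overlap at an unadjusted p under 0.05, and the highest of each role; sulf1 and other members were added to complete each role. In other lists they were genes past either threshold, or else the smallest p. The members and lists were chosen with earlier results of these data known. Reads of near-identical gene copies may be split between them, and strand use is not stated. Another 9 identifiers of the FPKM table carry a family name only in the gene name table and are not used here.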

Additional observations from a re-analysis of the deposited data

How the results depend on the processing

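Alternatives were an added value of 0.1 or 1, no minimum or a minimum mean of 2 FPKM, median-ratio or quantile scaling, a variance estimate that is not robust, the replicate number as a block, and leaving out each sample. sulf2a stayed lower in all of them, with an adjusted p under 0.05 in 7 of 8 settings with all samples and in 2 of 6 without a sample (limma, 0.00966 to 0.0820). No other member was called in any setting, with a lowest adjusted p of 0.183 (sulf2b, without WT replicate 1). The number of genes called over the table was 16, against 9 with a minimum mean of 2 FPKM, 10 after quantile normalization and 4 to 180 without a sample, 180 being without WT replicate 1. The number of members called was 0 to 1 without a sample. With the replicate block, 0 genes and 0 members were called, and sulf2a had an adjusted p of 0.0796 at the same log2 change of -1.47. Whether the replicate numbers pair the samples was not settled. Same-numbered samples correlated in their deviations at 0.21, -0.026 and 0.14 for replicates 1, 2 and 3. Samples with different numbers correlated at -0.22 (DN-MAML replicate 1 with WT replicate 3) to 0.094 (DN-MAML replicate 2 with WT replicate 3). The median log2 change of the set lay between -0.058 and 0.055 without a sample. Small changes crossed 0 in places, and the cause was not tested. ndst2a (ENSDARG00000086269) was -0.0030 after median-ratio scaling and -0.012 after quantile normalization, and sdc2 was 0.063 after quantile normalization. Without a sample, ndst2a ran from -0.013 to 0.093, sdc2 from -0.096 to 0.065, ext2 from -0.081 to 0.014, hs2st1b from -0.22 to 0.26 and sulf2b from -0.0065 to 0.42. Of 168 values of the 12 named members under alternatives, 152 kept their direction and their side of the threshold. Depth per sample is unknown, and rounding to 0.01 leaves the genes of lowest FPKM few distinct values.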

Other observations

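Replicate 1 was the highest sample in both groups for 11 of the 30 heparan sulfate genes tested (36.7%), where this held for 3439 of 16556 genes tested (20.8%). The 11 genes were sdc2, GPC6 (2 of 3), gpc1b, XYLT2 (1 of 2), b3gat3, ext2, extl2, hs6st2, sulf1, sulf2b and hpse. Replicate 2 was the highest in both groups for 0 of the 30 genes, where this held for 3.38% of all genes tested, and replicate 3 for 6 (20.0%), where this held for 17.1%. This was looked at after the values were seen, and no test was made.

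Of the 9 identifiers that carry a family name only in the gene name table, those given here were picked without a rule set beforehand. The names GPC5 and NDST1 also occur among the identifiers of the comparison table alone. Whether these are the same genes was not settled. ENSDARG00000099478 (HS2ST1) had 2.67, 3.28 and 2.62 FPKM in the DN-MAML samples, against 3.94, 3.15 and 3.58 FPKM in the WT samples. ENSDARG00000103647 (GPC5) had 1.1, 1.1 and 1.63 FPKM in the DN-MAML samples, against 0.83, 0.72 and 0.90 FPKM in the WT samples, without overlap. Of all genes tested 9.83% were separated in that direction. ENSDARG00000103606 (NDST1) had 7.36, 7.27 and 7.17 FPKM in the DN-MAML samples, against 7.45, 5.63 and 5.98 FPKM in the WT samples, and overlapped.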
